A study of Homo sapiens with 6 samples.

Results

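The genes described here, 9 in number, were grouped under the name quiescence factors. They are the Kruppel-like factors KLF2, KLF4 and KLF6, the forkhead factors FOXO1 and FOXO3, the antiproliferative proteins BTG1, BTG2 and TOB1, and TSC22D3, also called GILZ. If the cells were quiescent was not tested. The members were every probe set of an expression array whose annotation gave 1 gene symbol and whose symbol was one of these 9. They came to 24 probe sets for 8 of the 9 genes, out of 41091 probe sets with 1 symbol and 54675 probe sets in all. BTG2 was not analysed here, because the annotation used had no probe set under its symbol. Another 3 probe sets named FOXO3 together with FOXO3B and were left out.

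RNA from 2 human lines of diffuse large B-cell lymphoma, KARPAS-422 and Pfeiffer, was hybridised to 6 arrays. Cells of every group were infected with lentivirus in medium with 10% fetal bovine serum and polybrene at 8 µg/ml and, 2 days later, were selected with puromycin at 1 µg/ml for 2 days. One group of each line carried shNTC, a hairpin against a sequence absent from mammals, and the other carried shEZH2, a hairpin against EZH2, the methyltransferase that writes the repressive mark H3K27me3. The labelled exposure was 10 days in all groups, and KARPAS-422 had 2 arrays for each hairpin while Pfeiffer had 1. Each arm had 1 hairpin, so an effect of EZH2 loss and an effect particular to that hairpin cannot be told apart. The labels call the KARPAS-422 arrays biological replicates and do not say if the infections were separate. The p-values therefore reflect how far these particular arrays lie apart, which may be technical. The comparison asks which genes change when EZH2 is reduced, and in which of the lines.

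KLF2 is a transcription factor that keeps naive T and B cells quiescent and sets which trafficking receptors they carry, and KLF4 and KLF6 bind related GC-rich or CACCC sequences. FOXO1 and FOXO3 enter the nucleus when PI3K and AKT signalling is low and activate genes for cell cycle arrest, stress resistance and cell death. FOXO1 also drives transcription of KLF2 in lymphocytes. BTG1, BTG2 and TOB1 bring the CCR4-NOT deadenylase to messenger RNAs and so shorten their poly(A) tails, and TSC22D3 is a glucocorticoid-induced leucine zipper protein that FOXO factors can also induce.

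The promoters of KLF2 and BTG1 are shown because these were the members that passed the test over both lines. The sequences are the 250 bases before the RefSeq start site on the gene's strand, in GRCh38.p14. That of KLF2 lies at chr19:16324576-16324825 on the plus strand, just upstream of the gene at positions 16324826 to 16328685. That of BTG1 lies at chr12:92145847-92146096 on the minus strand, just upstream of the gene at positions 92140278 to 92145846. Capitals mark matches, on either strand, to CACCC (the core bound by Kruppel-like factors), GGGCGG (the GC box), GTAAACA (the FOXO core) and CCAAT.
KLF2: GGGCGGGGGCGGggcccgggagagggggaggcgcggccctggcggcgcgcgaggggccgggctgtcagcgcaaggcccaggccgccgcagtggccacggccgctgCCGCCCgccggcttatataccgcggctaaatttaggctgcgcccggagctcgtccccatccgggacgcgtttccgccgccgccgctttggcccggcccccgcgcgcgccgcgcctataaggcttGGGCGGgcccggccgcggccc
BTG1: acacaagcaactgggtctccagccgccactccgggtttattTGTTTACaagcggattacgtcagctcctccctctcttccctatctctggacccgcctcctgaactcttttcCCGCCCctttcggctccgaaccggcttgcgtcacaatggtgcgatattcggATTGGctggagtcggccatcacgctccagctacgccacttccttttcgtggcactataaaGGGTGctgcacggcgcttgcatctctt
The KLF2 window held only GC boxes, at 4 places, the nearest beginning 21 bases before the start site. The BTG1 window held a FOXO core as TGTTTAC 209 bases before the start site, a GC box at 138, CCAAT as ATTGG at 87 and CACCC as GGGTG at 27. Over the 16 RefSeq windows of the 9 genes, the FOXO core was found in 2, those of BTG1 and TSC22D3, and in 2.98% of all 35116 promoter windows searched. CACCC was in 9 of the 16 and in 54.7% of all windows, the GC box in 13 of 16 and 42.6%, and CCAAT in 5 of 16 and 32.0%. In the member windows, 2 pairs of matches to different motifs overlapped. A match is a run of letters and not a measured binding site.

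Values are log2 MAS5 signals as deposited, and a difference of 1 is a doubling. The median of all deposited values was 6.21, and the arrays' own medians lay between 6.07 and 6.41. A probe set was tested if at least 2 of the 6 arrays exceeded 6.21, which kept 17 of the 24 and left 7 out. Tests were limma fits over everything kept, with Benjamini-Hochberg adjustment and a threshold of 0.05, and each gene stood for its kept probe set of highest mean. The arms of Pfeiffer have 1 array each, so its own differences have no replicate check. EZH2 itself was lower with shEZH2 by a log2 difference of -1.11 in KARPAS-422 (limma SE 0.10, adjusted p = 0.000773), which left 46.3% of the control signal, and by -1.41 in Pfeiffer. In the list of 11 annotated B cell markers, 10 exceeded the median on each KARPAS-422 array and 9 on each Pfeiffer array. CR2 was dim in both lines, and EBF1, a B cell factor at 12.70 to 12.94 in KARPAS-422, was at 6.02 and 6.01 in Pfeiffer. In bulk RNA, fewer cells of a type and less RNA per cell cannot be told apart.

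In KARPAS-422, 5 of the 7 genes tested rose with shEZH2 and none fell: KLF2, KLF6, FOXO1, FOXO3 and BTG1. TOB1 and TSC22D3 did not pass, and KLF4 was too dim to test. Over all 13036 genes tested, 13.1% rose and 12.3% fell. By probe set, 11 of the 17 kept rose and none fell, beside 12.4% and 9.10% of the 25186 probe sets tested. The median difference was 1.01 over the 7 genes and -0.02 over all genes tested. KLF2 reached the filter only through arrays that carried shEZH2, so it could enter the test only by being higher there. With no filter, 10 of all 24 member probe sets passed, beside 9.35% of all probe sets. The count of 5 genes fell to 3 without KARPAS-422 shEZH2 replicate 1 and to 1 when the variance was fitted without its trend on signal, a setting under which calls over all genes fell from 3305 to 720.

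**Figure D1:**
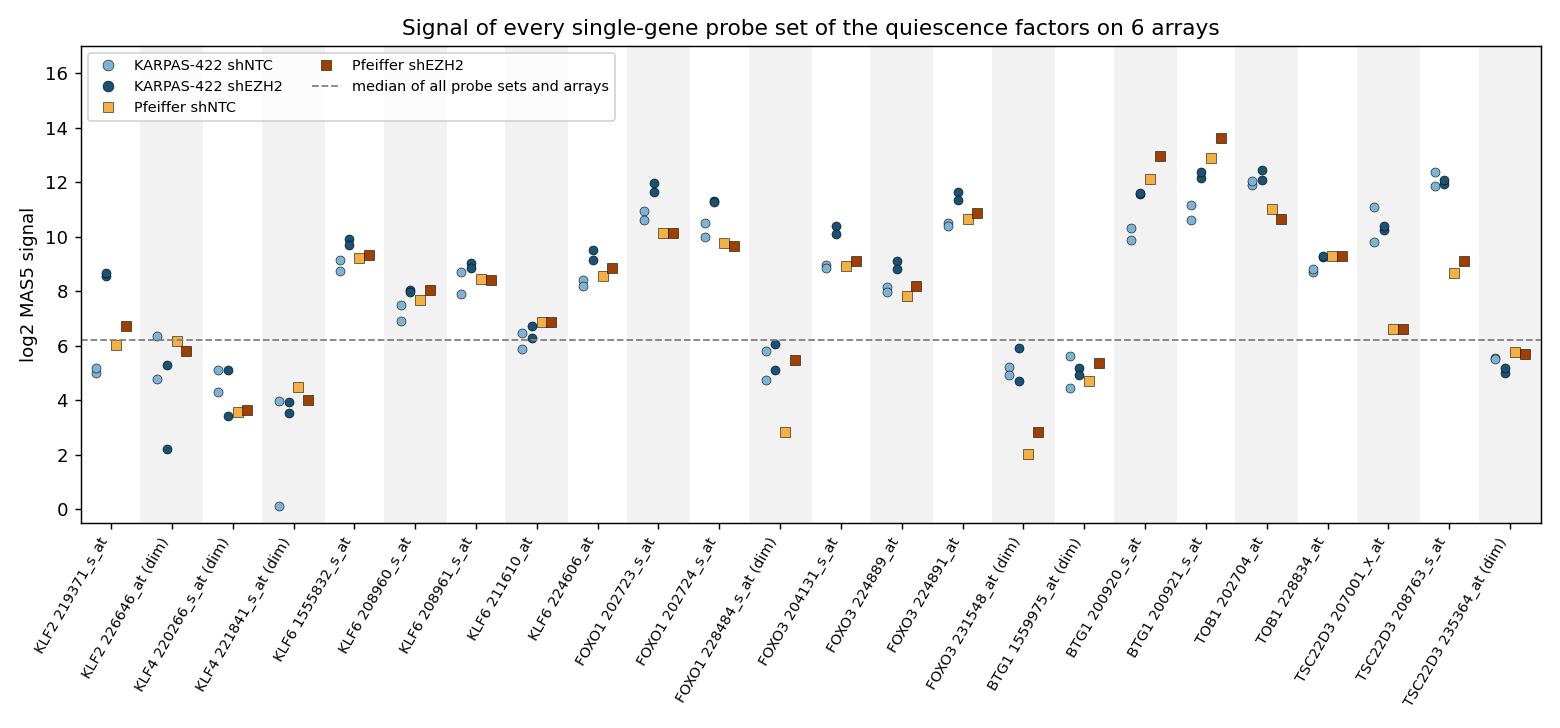
Log2 MAS5 signal (vertical axis) of each of the 24 member probe sets (horizontal axis) on the 6 arrays, with circles for KARPAS-422, squares for Pfeiffer, darker symbols for shEZH2 and a dashed line at the median of all values, 6.21. For KLF2 219371_s_at the KARPAS-422 shEZH2 arrays lie at 8.56 and 8.65 and the control arrays at 4.98 and 5.18, and the 7 probe sets marked dim were not tested.

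KLF2 had the largest change among the members. Its probe set 219371_s_at read 4.98 and 5.18 on the KARPAS-422 control arrays, 8.56 and 8.65 on the shEZH2 arrays, 6.03 on the Pfeiffer control and 6.70 on Pfeiffer shEZH2. The KARPAS-422 controls were below the median of all values and the shEZH2 arrays well above it, with no overlap. The difference in KARPAS-422 was 3.52 (limma SE 0.29, adjusted p = 0.000545), or 11.5-fold. Because the control signals were dim the size depended on the low end of the scale: it was 3.02 with 16 added to each linear signal and 2.21 with 64 added. The rise passed in every alternative in which KLF2 was tested, leaving out any 1 array included. The other KLF2 probe set, 226646_at, did not follow it. It read 4.79 and 6.35 on the KARPAS-422 control arrays, 2.22 and 5.29 on the shEZH2 arrays, and 6.17 and 5.80 in Pfeiffer, and was not tested because only 1 array exceeded the median.

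KLF4 (chromosome 9, 107484852 to 107489769), which is known to restrain the proliferation of naive lymphocytes, gave no usable signal. Probe set 220266_s_at read 5.12 and 4.31 on the KARPAS-422 controls, 5.09 and 3.41 with shEZH2, and 3.57 and 3.65 in Pfeiffer. Probe set 221841_s_at read 0.12 and 3.96, then 3.51 and 3.95, then 4.49 and 4.02 in the same order. All 12 of these readings were below the median of all values, and neither probe set shows an order of the arms.

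KLF6 (chromosome 10, positions 3775996 to 3785209 in GRCh38.p14), a widely expressed factor known as an inducer of the cell cycle inhibitor p21, rose less than KLF2. Its brightest probe set, 1555832_s_at, read 9.14 and 8.73 on the KARPAS-422 controls, 9.92 and 9.69 with shEZH2, and 9.22 and 9.31 in Pfeiffer. The KARPAS-422 arms did not overlap, and the Pfeiffer arms lay between them. The KARPAS-422 difference was 0.87 (limma SE 0.18, adjusted p = 0.0134). With shEZH2 replicate 1 left out the adjusted p was 0.111, and with replicate 2 left out it was 0.0669, so neither passed. Among the 5 kept probe sets, tested separately, 1555832_s_at and 224606_at passed, the latter with 1.04 (limma adjusted p = 0.00900). The others gave 0.80 for 208960_s_at, 0.65 for 208961_s_at and 0.33 for 211610_at, with limma adjusted p-values of 0.0611, 0.122 and 0.536. All 5 were positive, and 224606_at lost its call without shEZH2 replicate 1 (adjusted p = 0.0647).

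FOXO1 (chromosome 13, 40555667 to 40666641), the forkhead factor that germinal centre B cells depend on, doubled in KARPAS-422. Probe set 202723_s_at read 10.95 and 10.63 on the controls and 11.96 and 11.64 with shEZH2. In Pfeiffer it read 10.12 and 10.14, so the arms there were nearly level. The KARPAS-422 difference was 1.01 (limma SE 0.15, adjusted p = 0.00484), and without shEZH2 replicate 1 the adjusted p was 0.0529. The probe set 202724_s_at gave 1.05 in KARPAS-422 (limma adjusted p = 0.00737, and 0.0525 without shEZH2 replicate 1) and -0.13 in Pfeiffer. The third, 228484_s_at, was dim on all arrays and was not tested. It read 5.81 and 4.72 on the KARPAS-422 controls, 6.06 and 5.11 with shEZH2, and 2.84 and 5.48 in Pfeiffer.

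FOXO3 (chromosome 6, 108559825 to 108684774), the close relative that shares the FOXO core motif, rose by a similar amount. Probe set 224891_at read 10.49 and 10.39 on the KARPAS-422 controls, 11.65 and 11.33 with shEZH2, and 10.65 and 10.85 in Pfeiffer. The shEZH2 array was the higher in each line, without overlap. The KARPAS-422 difference was 1.05 (limma SE 0.13, adjusted p = 0.00248), and it passed with any 1 array left out. The probe sets 204131_s_at and 224889_at gave 1.33 and 0.91, with limma adjusted p-values of 0.00221 and 0.0143, so all 3 kept probe sets passed, with fits over probe sets. The call of 224889_at was lost when either shEZH2 array was left out, with an adjusted p of up to 0.100. Probe set 231548_at was dim throughout, between 2.02 and 5.90, and was not tested.

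BTG1, which recruits the deadenylase and is a frequent site of mutation in B cell lymphoma, rose in KARPAS-422, and its shEZH2 array was also the higher one in Pfeiffer. Probe set 200921_s_at read 11.16 and 10.60 on the KARPAS-422 controls, 12.14 and 12.39 with shEZH2, and 12.89 and 13.61 in Pfeiffer. The order of the groups was KARPAS-422 control, KARPAS-422 shEZH2, Pfeiffer control and Pfeiffer shEZH2, with no overlap between neighbours. The KARPAS-422 difference was 1.38 (limma SE 0.18, adjusted p = 0.00284), or 2.61-fold, and the Pfeiffer difference was 0.71, or 1.64-fold. The KARPAS-422 call held with any 1 array left out. Probe set 200920_s_at gave 1.48 in KARPAS-422 (limma adjusted p = 0.00127) and 0.85 in Pfeiffer. The dim probe set 1559975_at, between 4.44 and 5.62, was not tested.

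TOB1 (chromosome 17, 50862223 to 50867978), the BTG-family protein that links the deadenylase to specific messages, gave different calls by probe set. The brighter, 202704_at, read 11.89 and 12.04 on the KARPAS-422 controls, 12.09 and 12.44 with shEZH2, and 11.00 and 10.65 in Pfeiffer. Its KARPAS-422 arms were 0.30 apart (limma SE 0.13, adjusted p = 0.129), which did not pass, and the Pfeiffer difference was -0.35. Probe set 228834_at read 8.69 and 8.80, then 9.25 and 9.29, then 9.29 and 9.30 in the same order. It rose by 0.53 in KARPAS-422 (limma SE 0.14, adjusted p = 0.0331). That call was lost with any 1 KARPAS-422 array left out (adjusted p from 0.0564 to 0.138), and under quantile normalisation (adjusted p = 0.119).

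TSC22D3 (chromosome X, 107713221 to 107775988) did not pass in KARPAS-422. Probe set 208763_s_at read 12.37 and 11.85 on the controls, 11.94 and 12.07 with shEZH2, and 8.67 and 9.09 in Pfeiffer. The KARPAS-422 arms overlapped, with a difference of -0.10 (limma SE 0.17, adjusted p = 0.699), and the sign turned to 0.01 under quantile normalisation and to 0.16 without shNTC replicate 1. Probe set 207001_x_at read 11.09 and 9.80 on the controls and 10.24 and 10.40 with shEZH2, so the control arrays themselves were further apart than the arms. Its difference of -0.13 (limma adjusted p = 0.838) became -0.77 without shNTC replicate 2 (adjusted p = 0.0289) and 0.52 without shNTC replicate 1 (adjusted p = 0.112). The dim probe set 235364_at read at most 5.78 on any array and was not tested.

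**Figure D2:**
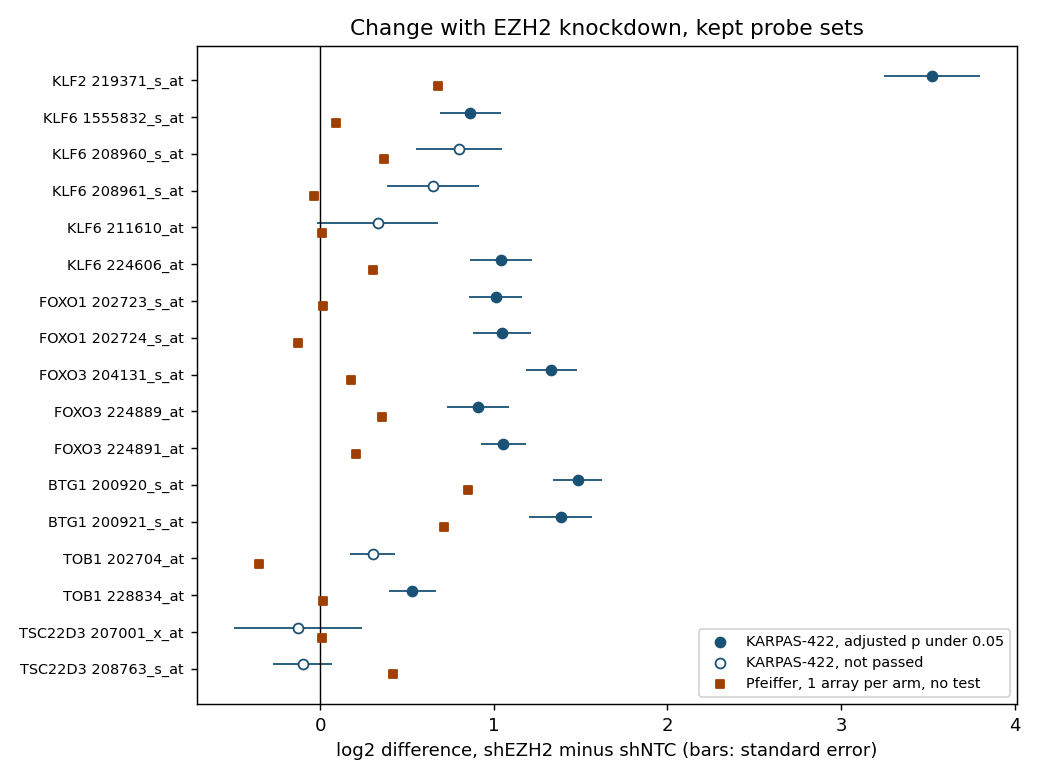
Log2 difference, shEZH2 minus shNTC (horizontal axis), for each of the 17 kept member probe sets (vertical axis), with KARPAS-422 as circles with the limma standard error, filled where the adjusted p is under 0.05, and Pfeiffer as squares with no test. In KARPAS-422, 11 of the 17 are filled, led by KLF2 at 3.52, and no Pfeiffer difference reaches 1.

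In Pfeiffer the median difference was 0.21 over the 7 genes, beside 0.03 over all genes tested. None of these 7 genes, nor any of the 17 kept probe sets, reached a log2 difference of 1 in either direction, while 3.23% of all genes were higher and 1.48% lower by that much. Among the 7 dim probe sets left out of the tests, FOXO1 228484_s_at did, at 2.64. The largest were 0.71 for BTG1 and 0.68 for KLF2, followed by 0.42 for TSC22D3, 0.21 for FOXO3, 0.09 for KLF6 and 0.02 for FOXO1, while TOB1 was at -0.35. In both lines the shEZH2 arrays all lay above the controls for 5 of the 7 genes, KLF2, KLF6, FOXO1, FOXO3 and BTG1, beside 22.0% of all genes. KLF2 is counted here although it reached the filter only through shEZH2 arrays. For FOXO1 and KLF6 that rests on Pfeiffer differences that turned negative under another setting, down to -0.10 and -0.03.

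A fit of line and hairpin over the 6 arrays gave calls for KLF2 and BTG1. The both-line difference was 2.57 for KLF2 (limma SE 0.54, adjusted p = 0.0410) and 1.16 for BTG1 (limma SE 0.19, adjusted p = 0.0285). Those are 2 of 7 genes, beside 3.76% of all genes higher in this fit. KLF2 reached the filter only through shEZH2 arrays, so it could enter this fit only by being higher there. The KLF2 and BTG1 calls were lost without the variance trend on signal, a setting in which 0 of 13036 genes passed. They were also lost with the replicate number as a block, in which 11 of 13036 genes passed. That of KLF2 was also lost with no filter. FOXO3 was at 0.77 (limma adjusted p = 0.0504), FOXO1 at 0.68 (0.0872) and KLF6 at 0.61 (0.0979), and these did not pass, although FOXO3 did under some other settings (adjusted p down to 0.0424 with all arrays). TOB1 at 0.09 and TSC22D3 at 0.07 were near 0. Both calls were lost with any 1 KARPAS-422 array left out, with limma adjusted p-values of 0.132 to 0.200 for KLF2 and 0.0864 to 0.167 for BTG1. Over all genes, calls in this fit fell from 811 to 17 without shNTC replicate 1 and to 0 without any other of the KARPAS-422 arrays. With either Pfeiffer array left out the fit rests on KARPAS-422 alone, and 5 of the 7 passed.

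KLF2 was the only member whose change differed between the lines by the test of that difference. The change in KARPAS-422 exceeded that in Pfeiffer by 2.85 (limma SE 0.50, adjusted p = 0.0443), beside 1.25% of all genes with a larger change in KARPAS-422. Leaving out either KARPAS-422 shEZH2 array ended the call, with adjusted p-values of 0.236 and 0.254 and no gene passing at all, and so did using no filter (adjusted p = 0.103). For FOXO1 the KARPAS-422 change exceeded the Pfeiffer change by 0.99 (limma adjusted p = 0.126), for FOXO3 by 0.85 (0.127), for KLF6 by 0.78 (0.259), for BTG1 by 0.67 (0.320) and for TOB1 by 0.65 (0.207). Without shNTC replicate 1 of KARPAS-422, which leaves 1 control array in that line, FOXO1 (1.16) and BTG1 (0.95) passed as well. More of all genes passed this test then than with all arrays, so the gain is not particular to these members.

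The lines also differed in how much of each factor they carried, averaged over the hairpins. TSC22D3 was higher in KARPAS-422 than in Pfeiffer by 3.18 (limma SE 0.15, adjusted p = 2.26e-06), TOB1 by 1.29 (SE 0.11, adjusted p = 5.55e-05) and FOXO1 by 1.16 (SE 0.13, adjusted p = 0.000215). BTG1 was lower in KARPAS-422, by -1.67 (limma SE 0.15, adjusted p = 7.47e-05). Such differences were common, since 26.8% of all genes were higher and 30.2% lower in KARPAS-422. TOB1's other probe set, 228834_at, was at -0.29 (limma adjusted p = 0.0721), against the direction of the brighter one, whereas both kept probe sets of TSC22D3, FOXO1 and BTG1 had the same sign. The differences of KLF2 (0.48), FOXO3 (0.21) and KLF6 (0.10) did not pass. With probe sets tested separately, 2 of the 3 FOXO3 probe sets did, 204131_s_at at 0.55 (limma adjusted p = 0.00837) and 224889_at at 0.50 (0.0288). Among the alternatives in which each was tested, the KLF2 level passed in 3 of 13 and the FOXO3 level in 2 of 15. With median centring both did, KLF2 at 0.70 (limma adjusted p = 0.0419) and FOXO3 at 0.44 (limma adjusted p = 0.0144). KLF2 also passed with 64 added to each linear signal (limma adjusted p = 0.0118). In the control arms alone the 3 genes were -0.95, -0.21 and -0.29, and none of these passed either.

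Genes of the surrounding pathways were taken from 7 lists, and counts here leave the members out. The lists were fixed with earlier results of these data known, so a count above the share of all genes is no independent support. Of 126 genes tested in the lists, here with members and each gene counted once, 44 passed in KARPAS-422, beside 25.4% of all genes in either direction. Without shEZH2 replicate 1 or 2 that number was 17 each time, beside 8.25% and 7.39% of all genes. The shares of all genes that rose and fell in KARPAS-422, 13.1% and 12.3%, are what each list's main counts are to be read against. Counts given with an array left out or under another scaling are not, because the shares of all genes differed there. In the Kruppel-like factor family, 2 of 9 rose and none fell, with a median of 0.18. These were KLF7 (0.98) and KLF13 (0.46), and both lost their calls when either shEZH2 array was left out. One of the 5 KLF7 probe sets went the other way, at -0.40.

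Of 28 known FOXO targets, 8 rose, 1 fell and 19 did not pass, beside 13.1% and 12.3% of all genes that rose and fell. Their median was 0.33, beside -0.02 over all genes, and 7 of the 28 were higher over both lines, beside 3.76%. TNFSF10, the death ligand TRAIL, read 4.46 and 4.22 on the KARPAS-422 controls, 8.08 and 7.71 with shEZH2, and 6.14 and 6.98 in Pfeiffer. GADD45A, a growth arrest and DNA damage gene, read 8.94 and 8.85, then 11.54 and 11.52, then 12.09 and 12.76. Only shEZH2 arrays of TNFSF10 exceeded the filter, so, like KLF2, it could enter the test only by being higher there. SESN3, a sestrin that restrains mTORC1, read 9.04 on both controls, then 11.53 and 11.61, then 6.51 and 7.95. The shEZH2 arrays were the higher in each line for all 3, and the KARPAS-422 differences were 3.55, 2.64 and 2.53, each passing with any 1 array left out. With 64 added to each linear signal the TNFSF10 difference was 1.84. KLHL24 rose by 1.54, and not without shEZH2 replicate 2 (limma adjusted p = 0.0757). SOD2, which encodes the mitochondrial superoxide dismutase, fell by 0.70, with its call lost when either shEZH2 array was left out. Without shEZH2 replicate 1 and 2 the number that rose was 6 and 4.

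Of 26 FOXO relatives and PI3K-AKT-mTOR pathway genes, 4 rose, 5 fell and 17 did not pass, with a median of -0.10. These counts are near the 13.1% and 12.3% of all genes. RICTOR, a core subunit of mTORC2, rose by 0.99, PIK3R1, the regulatory subunit of PI3K, by 0.78, the lipid phosphatase gene INPP5D by 0.47 and the kinase gene PDPK1 by 0.40. SKP2, the ubiquitin ligase subunit that targets p27, fell by 0.82, USP7 by 0.47, and the 14-3-3 genes YWHAQ and YWHAE, whose proteins hold phosphorylated FOXO in the cytoplasm, by 0.42 and 0.40. One USP7 probe set was at 0.52. Every one of these 8 calls was lost without at least 1 of the shEZH2 arrays. Without shEZH2 replicate 1 none rose and 1 fell, and under cyclic loess 4 rose and 1 fell.

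Of 9 genes under KLF2 or steering lymphocyte traffic, none passed as higher and 1 fell in KARPAS-422, beside 13.1% and 12.3% of all genes, with a median of -0.09. The chemokine receptor gene CCR7 was at 0.88 (limma adjusted p = 0.180) and the integrin gene ITGA4 at 0.40 (limma adjusted p = 0.0731), and neither passed. In Pfeiffer these 2 were at 1.19 and 1.26, the only 2 of the 9 that were higher by at least 1, beside 3.23% of all genes, and both are named here after their values were seen. The gene that fell was ITGB7, an integrin subunit for homing to the gut, which fell by 0.67 and lost its call when either shEZH2 array was left out. With quantile normalisation 1 rose and 1 fell.

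Of 18 relatives and partners of BTG and TOB, 1 rose, 4 fell and 13 did not pass, beside 13.1% and 12.3% of all genes, with a median of -0.01. The number that passed in either direction is near the 25.4% of all genes. The deadenylase complex subunits CNOT9, CNOT10 and CNOT7 fell by 0.88, 0.37 and 0.34, and PRMT1, an arginine methyltransferase that binds BTG1, fell by 0.43. PAN3 of the other deadenylase rose by 0.29. The call of CNOT9 held with any 1 array left out and the other 4 did not, and one CNOT7 probe set was at 0.41. Under cyclic loess 2 rose and 2 fell, and without shEZH2 replicate 2 none rose and 1 fell.

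TSC22 relatives and glucocorticoid-responsive genes gave 6 higher and 2 lower of 19, beside 13.1% and 12.3% of all genes, with a median of 0.13. The RNA-binding protein genes ZFP36L1 and ZFP36 rose by 0.93 and 0.80, the NF-kappa-B inhibitor gene NFKBIA by 0.81 and TSC22D1 by 0.49. The receptor chaperone gene FKBP4 fell by 0.92 and ZFP36L2 by 0.62. FKBP4 alone of these 6 kept its call with any 1 array left out, and without shEZH2 replicate 2 none rose and 2 fell. In Pfeiffer ZFP36L1 was at 9.78 with the control and 11.52 with shEZH2.

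Other genes tied to lymphocyte quiescence had the highest list median, 0.63. Of 19, 9 rose and 1, ZFP36L2, fell, beside 13.1% and 12.3% of all genes, and 5 were higher over both lines, beside 3.76%. The list was fixed with earlier results known and overlaps others. RBL2 and TXNIP are counted both here and among the FOXO targets that rose, and ZFP36L1 and ZFP36L2 both here and in the TSC22 list. BACH2, a repressor that holds B cells back from plasma cell fate, read 7.10 and 7.05 on the KARPAS-422 controls, 10.33 and 10.32 with shEZH2, and 5.71 and 5.50 in Pfeiffer. It was thus bright with shEZH2 in KARPAS-422 and below the median of all values in Pfeiffer. YPEL5 and YPEL3, small zinc-binding proteins of the Yippee family, rose by 2.26 and 1.38, and VSIR, the checkpoint protein VISTA, by 1.29. The first 3 kept their calls with any 1 array left out while VSIR lost its call without any 1 KARPAS-422 array (adjusted p from 0.0532 to 0.179) and with no filter (0.0648). VSIR also reached the filter only through the KARPAS-422 shEZH2 arrays. Without shEZH2 replicate 1 and 2 the number that rose was 4 and 3.

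**Figure D3:**
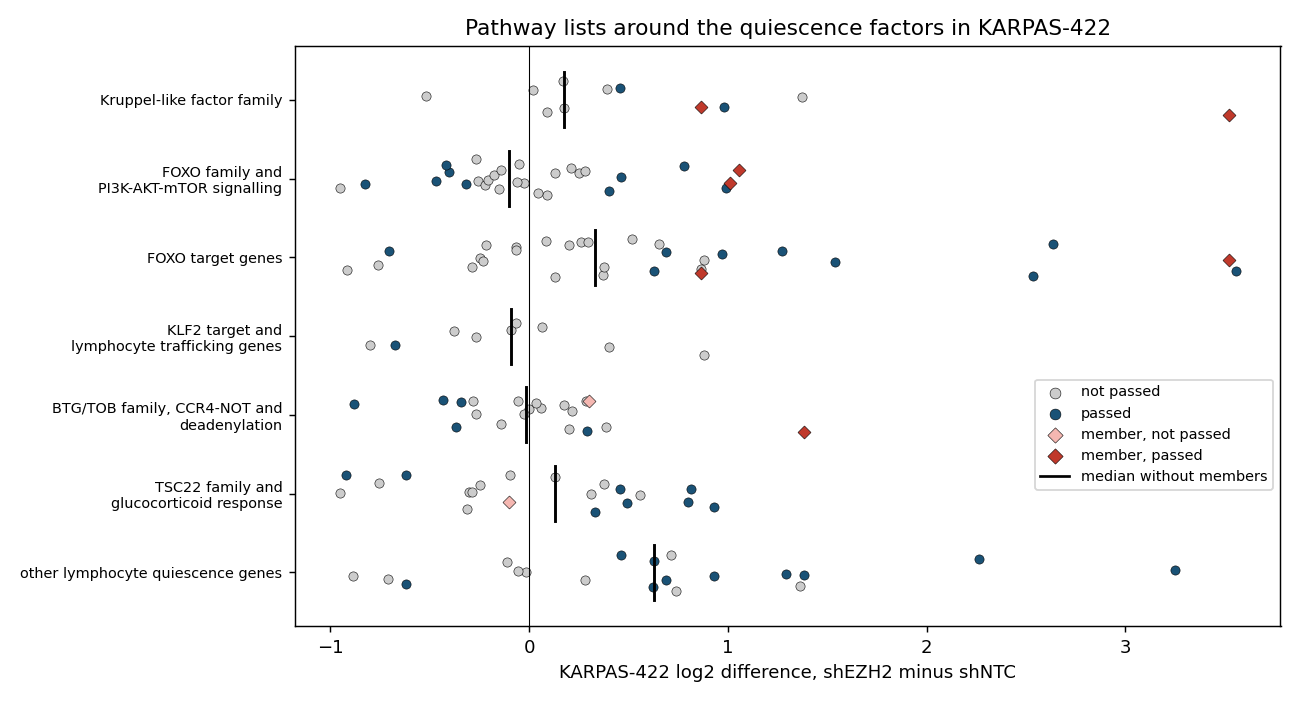
KARPAS-422 log2 difference, shEZH2 minus shNTC (horizontal axis), of each tested gene in the 7 pathway lists (rows, jittered vertically), with filled blue circles for genes that passed, grey for those that did not, diamonds for the quiescence factors themselves (dark where passed) and a bar at each list's median without them. The bar lies highest for the other quiescence genes, at 0.63, and below 0 for the PI3K, KLF2 target and BTG partner lists.

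For each factor that rose in KARPAS-422, the 3 genes with the most similar signal profile were found, by the root mean square difference of log2 signals centred over the 6 arrays. For KLF2 these were CARD16 (0.21), RTP4 (0.29) and RABGAP1L (0.44), which rose in KARPAS-422 by 3.12, 4.04 and 3.63. For KLF6 they were RICTOR (0.075), AP3B1 (0.091) and LINC00475 (0.099). For FOXO1 they were ANKFN1 (0.085), SHISA5 (0.086) and SMCHD1 (0.11), and for FOXO3 RICTOR (0.072), BST2 (0.11) and CSAD (0.11). For BTG1 they were TNFRSF14, the receptor HVEM (0.16), APOBEC3G (0.16) and LACC1 (0.17). RICTOR was thus nearest to both KLF6 and FOXO3, and RTP4 and BST2 are known interferon-induced genes. All of these profiles share the same 6 arrays, and each was chosen for its likeness. ANKFN1 and LINC00475 did not themselves pass in KARPAS-422 (limma adjusted p = 0.0931 and 0.0715). ANKFN1 also reached the filter only through the KARPAS-422 shEZH2 arrays.

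**Figure D4:**
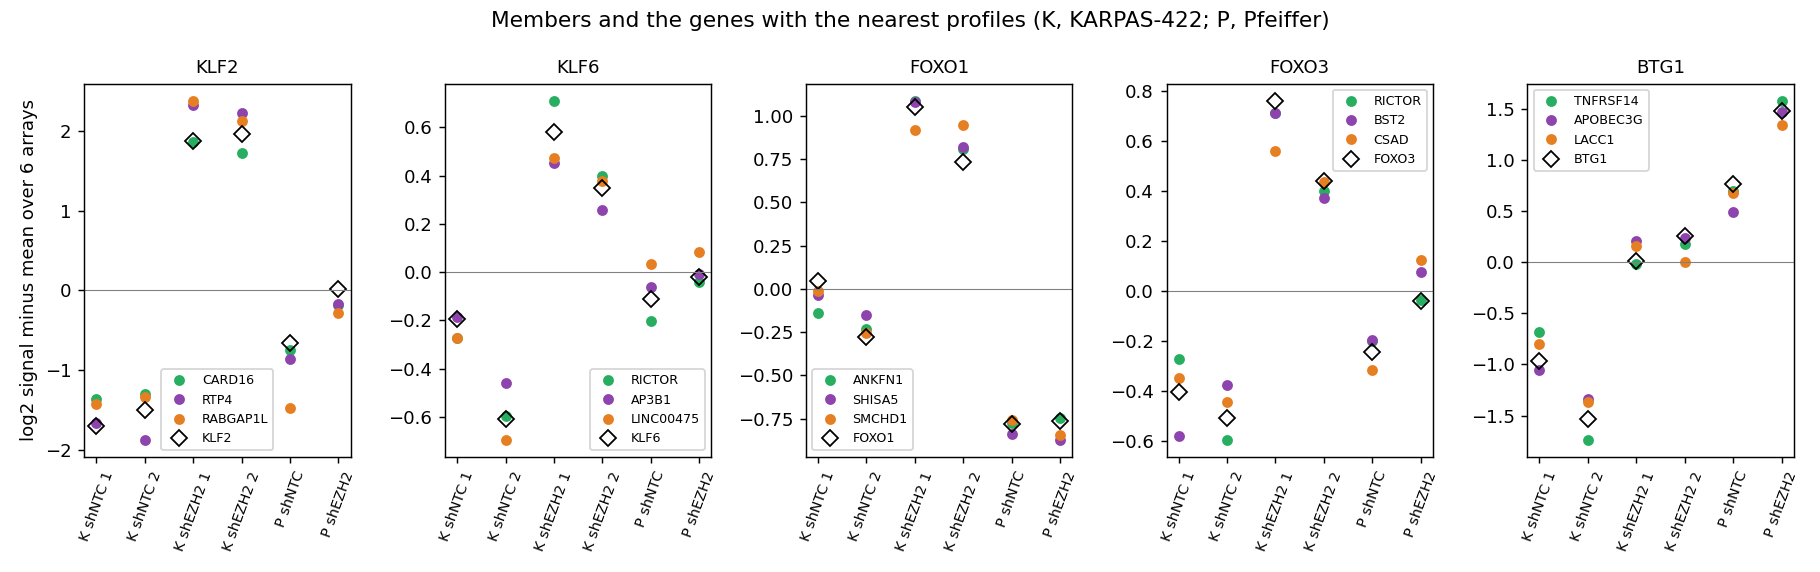
Log2 signal minus its mean over the 6 arrays (vertical axis, with its own range in each panel) on each array (horizontal axis), for the 5 factors that rose in KARPAS-422 (open diamonds) and the 3 genes nearest to each (filled circles). The KARPAS-422 shEZH2 arrays lie highest for KLF2, KLF6, FOXO1 and FOXO3, and the Pfeiffer arrays lie highest for BTG1.

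Among the lists of other cell types, only that of T and NK cells had genes that passed in KARPAS-422. The summed linear signal of 14 T and NK cell markers was 6703 and 7303 on the KARPAS-422 controls, 4663 and 4201 with shEZH2, and 12843 and 13339 in Pfeiffer. Of its 6 genes tested in KARPAS-422, none rose and 2 fell, beside 13.1% and 12.3% of all genes. CD3D and CD3G were bright in KARPAS-422, at 10.53 to 12.08, and CD8A in Pfeiffer, at 13.49 and 13.60. The myeloid sum of 10 markers was 208 to 342, and that of 11 fibroblast and epithelial markers was 9376 to 13998, with DCN bright in KARPAS-422 and EPCAM in Pfeiffer. The B cell sum was 78350 to 90282. No marker is listed at 0. The part of these differences in the changes of the quiescence factors was not tested.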

How the data were processed

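The deposited values are log2 signals made by the authors with MAS5, per the submitters' processing notes. On the linear scale the 2% trimmed mean of each array was 500. The log base and this target are read from the values. The probe annotation gave 1 symbol to 41091 probe sets, several to 1801, and 62 control probe sets were left out. Symbols were checked against RefSeq (41037 matched, 0 changed). No further normalisation was applied. KARPAS-422, line differences and levels came from a model of 4 groups (2 residual degrees of freedom), and both lines from line plus hairpin (3), with limma 3.58.1 in R 4.3.3, moderated with a trend on signal, two-sided, over 13036 genes or 25186 probe sets. The script was tested on simulated data. The named genes were all members, EZH2, up to 4 called genes per direction and list, by size, and the 3 nearest profiles per called member. Members and lists were chosen with earlier results of these data known. The labels name no batch shared by equal replicate numbers, so the main fits had no block. Over all genes tested, equal replicate numbers did not deviate together (correlation 0.0065). For KLF6, FOXO1 and FOXO3, however, replicate 1 was the higher in both KARPAS-422 arms. The replicate pairs correlated at 0.978 and 0.982 across the genes tested, and the Pfeiffer arms at 0.977. The number of arrays limits the precision. Promoters are from RefSeq, GRCh38.p14, and all 9 symbols matched. The GC box was added to the motifs after the other matches were seen. Alternatives covered scaling, filters, added signal, probe set choice, the variance trend, the replicate block and leaving out each array.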

Additional observations from a re-analysis of the deposited data

Results flagged for a closer look

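The change of KLF2 with EZH2 knockdown passed the test of a difference between the lines, but not under all settings. It was larger in KARPAS-422 than in Pfeiffer by 2.85 on the log2 scale (limma SE 0.50, adjusted p = 0.0443), from 3.52 in KARPAS-422 and 0.68 in Pfeiffer. Pfeiffer had 1 array per hairpin, so its own spread was taken to be that of KARPAS-422. KLF2 reached the filter only through shEZH2 arrays, and with no filter the adjusted p was 0.103. With KARPAS-422 shEZH2 replicate 1 or 2 left out it was 0.236 and 0.254. Over the 8 settings of scaling, filter, added signal and variance in which KLF2 was tested, the difference was 1.83 to 2.91 and its adjusted p 0.0223 to 0.103.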

How the results depend on the processing

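In KARPAS-422, 5 genes and 11 probe sets of the members passed. Without probe sets whose names end in _x_at or _s_at only 3 member genes could be tested, of which 2 passed, 0 passed over both lines and in the difference between lines, and 1 in the level between lines (4 in the main setting), and list genes that passed fell from 44 to 26. With no trend in the variance, 1 gene, 3 probe sets and 12 list genes passed in KARPAS-422. The shares of all genes and of all probe sets were 5.52% and 3.88%. Over both lines 0 members passed in that setting (main 2), beside 0 of 13036 genes. In the difference between lines 0 passed (main 1), beside 1 of 13036 genes. With no filter 1 member passed over both lines and 0 in the difference between lines, beside 1.53% and 0.576% of all genes. Under the stricter filter, which needs 4 arrays above the median and leaves KLF2 untested, the difference between lines had 0. Leaving out each array gave 3 to 5 genes, 6 to 12 probe sets, 17 to 42 list genes, 0 to 5 genes over both lines, 0 to 3 in the difference between lines and 4 to 4 in the level. Calls over all features moved in these fits too. In KARPAS-422, calls over all genes and all probe sets were fewer without any 1 of its arrays. Over both lines, calls over all genes were fewer without a KARPAS-422 array and more without a Pfeiffer array. In the difference between lines they were more without a KARPAS-422 shNTC array, and there were none without a shEZH2 array. These ranges are therefore not particular to the members. With the replicate number as a block, 0 members passed over both lines, where calls over all genes fell from 811 to 11 (BTG1 adjusted p = 0.0805, KLF2 0.0917), while 6 genes passed in KARPAS-422, TOB1 added (limma adjusted p = 0.0453). No member gene tested reached 1 in Pfeiffer under any scaling run.

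Uncalled values turned sign as follows. TSC22D3 in KARPAS-422, and its probe set 208763_s_at, became 0.012 under quantile normalisation and ran from -0.36 to 0.16 with each array left out, and 207001_x_at from -0.77 to 0.52. Over both lines TSC22D3 became -0.0071 with median centring, -0.0054 with the mean of probe sets and -0.10 to 0.27 with each array left out, and TOB1 became -0.076 to 0.30. The level of KLF6 became -0.085 with the mean of probe sets, -0.29 in the control arms and -0.0037 to 0.20 with each array left out, and the levels of KLF2 and FOXO3 became -0.95 and -0.21 in the control arms. The cause was not tested. Calls over all genes in KARPAS-422 were 1702 higher and 1603 lower, 1471 and 1973 with median centring and 1586 and 1199 with cyclic loess, and over both lines 490 and 321, or 463 and 1031 with median centring. With either KARPAS-422 shEZH2 array left out the gene calls fell from 3305 to 1076 and 963. Dim probe sets limit KLF4 and the second KLF2 probe set.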
